A study of Mus musculus with 24 samples.

Results

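The 8 genes *Apoe*, *Abca1*, *Abcg1*, *Nr1h3*, *Soat1*, *Npc1*, *Npc2* and *Scarb1* were taken by name, as genes that carry cholesterol out of cells, move it inside them or store it. They are 8 of 16730 genes in the count table, and all 8 passed the filter that left 15020 genes for testing. RNA of whole epididymal white adipose tissue (eWAT), called gWAT in the labels, was read from the 3′ end of transcripts by QuantSeq in 24 adult male mice, 6 in each of 4 groups. *Lama4* fl/fl mice, labelled wild type (floxed), carried loxP sites around exon 3 of *Lama4*, the gene for the laminin alpha 4 chain, on both alleles. *Lama4* AKO mice had these floxed alleles as well and, in addition, Cre under the adiponectin promoter, which is active in adipocytes, so other cells of the fat pad kept the unrecombined gene. Littermates of both genotypes ate breeder chow or a high-fat diet (HFD, 45% fat) for 20 weeks. By the study's legends, chow began at weaning and HFD at 6 weeks of age, and HFD ended at a later age than chow. Age thus differed between the diet groups, and its part in the diet effects was not tested. Cre-negative floxed mice were the only controls, and the labels do not say whether any library pooled animals.

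A cell cannot break down the sterol ring of cholesterol, so it either stores cholesterol as an ester or hands it to lipoproteins. Cholesterol taken up with lipoproteins or dead cells leaves the lysosome through the paired proteins NPC2 and NPC1, SOAT1 esterifies it for storage, and the transporters ABCA1 and ABCG1 pass it to apolipoproteins and HDL. LXRα, encoded by *Nr1h3*, senses oxysterols and switches on efflux genes, with *Abca1*, *Abcg1* and *Apoe* among its best known targets. Adipocytes hold a large pool of free cholesterol at the surface of the lipid droplet, and macrophages of obese fat take up lipid from dying adipocytes.

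The libraries held between 5579590 and 18764516 counts each. *Lama4* counts did not check the genotype here. Reads from the 3′ end lie outside exon 3, and whether its loss lowers their number was not tested. By quantitative PCR, the study found less *Lama4* RNA in eWAT of chow-fed AKO mice. Here the *Lama4* level in CPM (counts scaled to a common library size) differed by a log2 fold change of 0.11 ± 0.34 (SE, n = 6 and 6) between AKO and fl/fl on chow and by -0.69 ± 0.35 on HFD, with adjusted p = 0.980 and 0.347 (edgeR quasi-likelihood test). The HFD value turned to 0.14 (adjusted p = 0.939) in the set of 19 libraries described next. The summed adipocyte markers lay at 8433 CPM or more in every library, and the epididymis epithelium markers were at 0 in most libraries and at 23.2 CPM in the highest. The first principal component, 45.9% of the variance, split the 6 HFD fl/fl libraries into replicates 1, 2 and 5 (48.3 to 73.5) and replicates 3, 4 and 6 (-76.1 to -9.76), and put replicate 3 of chow fl/fl (46.8) and replicate 5 of chow AKO (22.0) beyond the rest of their groups. The study set aside libraries after such an analysis. The tests were therefore also run on 19 libraries, without those 3 HFD fl/fl libraries and the last 2, which were inferred to be the ones set aside, and values from the 19 stand beside the results they move. On the first principal component, replicate 1 of chow fl/fl (-91.8) and replicate 6 of HFD AKO (0.856) also lay apart from their groups. Both were kept in the 19. In whole tissue, fewer cells of a type and less RNA per cell cannot be told apart.

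No gene of the 8 met the study's criteria (an absolute fold change of at least 1.5, p of at most 0.001 and a group mean of at least 2 CPM) in any of 6 comparisons with all 24 libraries. The share of all tested genes that met them was 0.173% for HFD against chow in fl/fl, 4.12% for HFD against chow in AKO, 0.113% for AKO against fl/fl on chow, 0.173% for AKO against fl/fl on HFD, 0.386% for the interaction of diet and genotype and 2.22% for the diet averaged over genotypes. At these shares, a list of 8 genes without a call is no departure from the table as a whole. When the nominal p was replaced by an adjusted p with a limit of 0.05, 1 gene passed in 1 comparison, *Apoe* in AKO mice, where 16.1% of all genes passed. In the other 5 comparisons that limit called 0 of 8 genes by edgeR, beside 5.87% of all genes for the averaged diet, 0.00666% for the interaction and 0% for the rest. At an unadjusted p under 0.05 the count was 0 of 8 in fl/fl diet, chow genotype, HFD genotype and interaction, beside 9.01%, 5.85%, 14.8% and 15.6% of all genes.

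**Figure D1:**
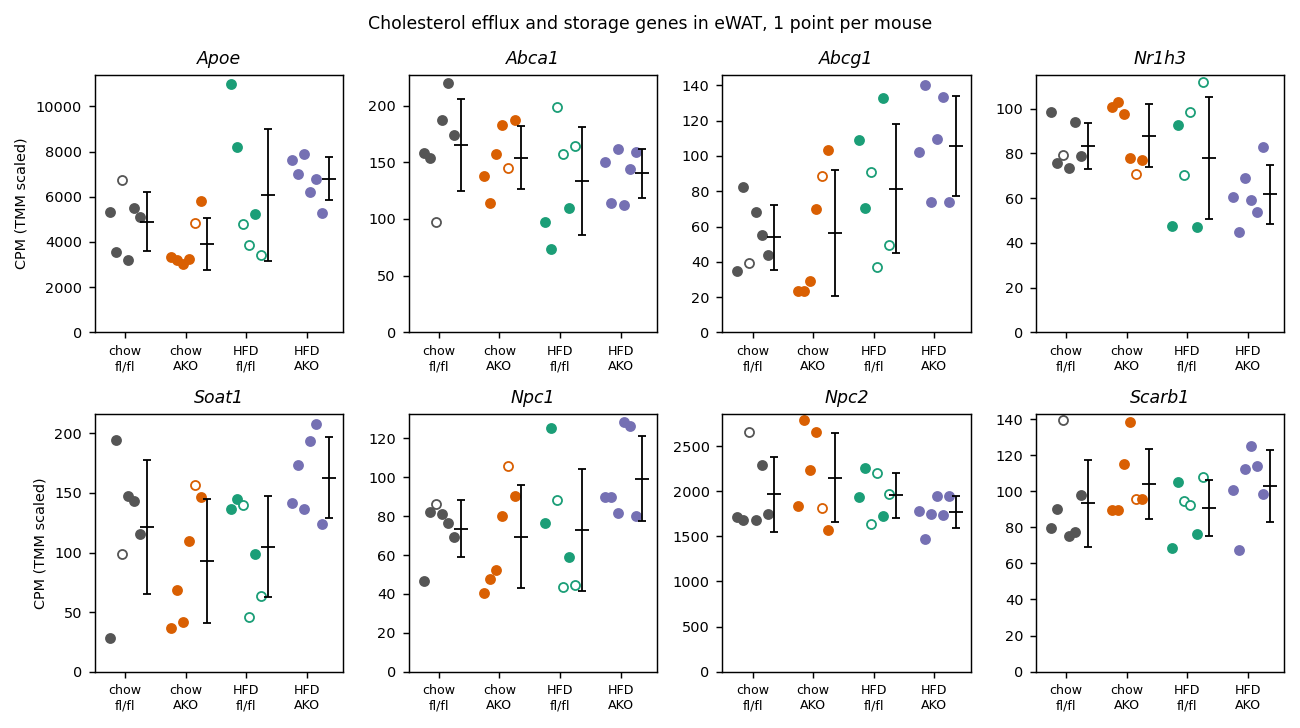
CPM values, scaled with TMM factors, of the 8 genes in every mouse, 1 point per mouse, with the mean and SD of each group (n = 6) as a black bar on the right. Open points are the 5 libraries left out of the set of 19. In AKO mice *Apoe* lay between 3014 and 5814 CPM on chow and between 5303 and 7901 CPM on HFD, whereas *Npc2* and *Scarb1* spread over one range in all groups.

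*Apoe* encodes apolipoprotein E, the acceptor and carrier of cholesterol that macrophages and adipocytes both secrete. It lies on the reverse strand of chromosome 7 from 19696109 to 19699188 (GRCm38). In chow AKO libraries its lowest, median and highest levels were 3014, 3285 and 5814 CPM, and in HFD AKO libraries 5303, 6896 and 7901 CPM. Every HFD AKO library was above 5 of the 6 chow AKO libraries, and the groups met only at replicate 6 of each. The log2 fold change of HFD against chow in AKO was 0.80 ± 0.26 (SE, n = 6 and 6), or 1.74-fold, with an adjusted p of 0.0344 (edgeR). Levels in fl/fl mice were 3212, 5217 and 6730 CPM on chow and 3434, 5024 and 10998 CPM on HFD. The ranges of HFD and chow fl/fl libraries overlapped, and the log2 fold change was 0.28 ± 0.26 with a 95% interval of -0.25 to 0.82. The diet effects of the genotypes were not shown to differ (interaction 0.51 on the log2 scale, adjusted p = 0.463). The order of medians was HFD AKO, chow fl/fl, HFD fl/fl and chow AKO, and neighbouring groups overlapped.

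The transporters of the efflux pathway did not move together. *Abca1* (chromosome 4, 53030787 to 53159895, reverse strand) encodes the transporter that loads phospholipid and cholesterol onto lipid-poor apolipoprotein A-I. Its 250 bases of upstream sequence are shown because it was the gene called lower in the 19 libraries and the only one whose promoter window held a DR4 match, the direct repeat with a spacer of 4 bases that LXR binds with its partner RXR. The sequence is RefSeq, GRCm38.p6, chr4:53159896-53160145, reverse strand, 5′ to 3′, and capitals mark the match:
*Abca1* upstream: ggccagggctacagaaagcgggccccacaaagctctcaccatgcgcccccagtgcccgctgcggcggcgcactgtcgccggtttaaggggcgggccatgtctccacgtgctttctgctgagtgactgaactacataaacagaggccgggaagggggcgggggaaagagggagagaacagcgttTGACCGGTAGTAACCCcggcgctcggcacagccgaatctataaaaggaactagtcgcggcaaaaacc
Read on the other strand, the match is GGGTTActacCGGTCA at -67 to -52 from the start of transcription, and it differs from AGGTCA, 4 bases, AGGTCA at 3 of 12 positions. The search covered both strands of the windows from 250 bases before to 50 after each start and allowed 3 mismatches. Of 32851 windows in the table, 21.9% held such a match, so one in 1 of 8 windows is no excess. The *Abca1* window also held CACGTG at -147 (7.15% of windows) and TATAAA at -29 (13.6%). RefSeq windows were found for 5 of the 8 genes (*Apoe* 3, *Nr1h3* 2, *Abca1*, *Soat1* and *Npc2* 1 each), and those of *Abcg1*, *Npc1* and *Scarb1* were not analysed here.

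*Abca1* in fl/fl mice lay at 97.7, 166 and 220 CPM (lowest, median and highest) on chow and at 73.7, 133 and 199 CPM on HFD. The HFD fl/fl group fell into the same sets of libraries as the first principal component: replicates 1, 2 and 5 had 97.1, 73.7 and 109 CPM, and replicates 3, 4 and 6 had 199, 157 and 164 CPM. With all libraries the log2 fold change was -0.33 ± 0.22 (95% interval -0.78 to 0.12, adjusted p = 0.666). Without the 5 libraries it was -0.99 ± 0.20 (adjusted p = 0.0017), a call in a set in which 11.8% of all genes were called. The call came with the removal of the 3 highest HFD fl/fl libraries and of the lowest chow fl/fl library. In AKO mice *Abca1* lay at 114, 151 and 188 CPM on chow and 112, 147 and 161 CPM on HFD, with a log2 fold change of -0.13 (95% interval -0.58 to 0.31) in all libraries and of -0.15 in the 19. The interaction was 0.20 (adjusted p = 0.747) with 24 libraries and 0.84 (adjusted p = 0.175) with 19.

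*Abcg1* (chromosome 17, 31057675 to 31117988, forward strand), whose product moves cholesterol to mature HDL, had the largest diet estimate among the 8 genes in AKO mice. Its levels were 23.3, 49.3 and 104 CPM in chow AKO and 73.9, 106 and 140 CPM in HFD AKO libraries. The chow AKO group was wide: replicates 1 to 3 had 23.7, 23.3 and 28.9 CPM, and replicates 4 to 6 had 69.7, 88.9 and 104 CPM, the last 2 of them inside the HFD range. The log2 fold change was 0.90 ± 0.37 (adjusted p = 0.0722), which missed both criteria. On the fl/fl background *Abcg1* lay at 34.6, 49.7 and 82.5 CPM on chow and 36.9, 80.4 and 133 CPM on HFD, with overlap over most of the range (0.56 ± 0.36, adjusted p = 0.660). Averaged over genotypes, the estimate was 0.73 ± 0.26 with an adjusted p of 0.0582.

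*Scarb1* (chromosome 5, 125277087 to 125341094, reverse strand) encodes SR-BI, the HDL receptor that exchanges cholesterol in both directions. Medians were 84.7, 95.7, 93.3 and 107 CPM in chow fl/fl, chow AKO, HFD fl/fl and HFD AKO libraries, within a range of 67.5 to 139 CPM over all libraries. Its diet effect was -0.06 in fl/fl (95% interval -0.41 to 0.28) and -0.01 in AKO (-0.35 to 0.33), so a 1.5-fold change in either direction lay outside both intervals. The annotation places the counted gene Gm42633 on the same strand within it, and reads of the pair may not be separable.

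*Nr1h3*, the gene for the sterol sensor LXRα, had its lower levels where *Apoe* and *Abcg1* had their higher ones. It lies on chromosome 2 from 91184061 to 91202834 on the reverse strand and overlaps the counted gene Gm13783 on that strand. In AKO mice its levels were 70.7, 87.8 and 103 CPM on chow and 44.8, 59.8 and 83.0 CPM on HFD. Of 6 HFD AKO libraries, 5 were below the lowest chow AKO library. The log2 fold change was -0.51 ± 0.19 (adjusted p = 0.0607), and in the 19 libraries it was -0.56 (adjusted p = 0.0192), short of a 1.5-fold change. Among fl/fl libraries *Nr1h3* lay between 73.6 and 98.4 CPM on chow and between 47.1 and 112 CPM on HFD, with a log2 fold change of -0.12 (95% interval -0.52 to 0.28). In the 19 libraries the fl/fl estimate was -0.49 ± 0.22 (adjusted p = 0.0978), and the interaction was -0.07 (adjusted p = 0.950).

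The storage and lysosomal export genes overlapped widely between groups. *Soat1* (chromosome 1, 156424525 to 156474331, reverse strand) makes cholesteryl ester, the form kept in lipid droplets and in foam cells. It lay at 28.4, 130 and 194 CPM in chow fl/fl, 36.6, 88.9 and 156 CPM in chow AKO, 46.0, 118 and 145 CPM in HFD fl/fl and 124, 158 and 207 CPM in HFD AKO libraries. The HFD AKO group had the narrowest spread (SD of log2 CPM 0.30, beside 0.98, 0.91 and 0.69 in the other groups), and 2 chow AKO libraries lay inside its range. The log2 fold change was 0.80 ± 0.38 (adjusted p = 0.122) for the diet in AKO and -0.24 ± 0.38 in fl/fl. The interaction, 1.04 ± 0.54 on the log2 scale, was the largest of the 8 genes and had an adjusted p of 0.343.

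*Npc1* (chromosome 18, reverse strand) and *Npc2* (chromosome 12, 84754562 to 84773152, reverse strand) encode partners in the same export step. Their estimates in AKO mice had opposite signs, neither passed a test, and the difference between them was not tested. In AKO libraries *Npc1* lay at 40.5, 66.2 and 106 CPM on chow and 79.9, 90.0 and 128 CPM on HFD, with 3 chow libraries inside the HFD range. Its log2 fold change was 0.51 ± 0.25 (adjusted p = 0.133). *Npc2* in the same libraries lay at 1566, 2037 and 2791 CPM on chow and 1473, 1765 and 1944 CPM on HFD. Its log2 fold change was -0.28 ± 0.16 (adjusted p = 0.191). The fl/fl estimates were -0.05 (95% interval -0.57 to 0.47) for *Npc1* and -0.03 (-0.36 to 0.30) for *Npc2*. *Npc1* shares its 3′ region with the counted gene *Rmc1* on the opposite strand, and the strand setting of the counting is not given in the sources used here, so reads of this pair may not be separable.

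**Figure D2:**
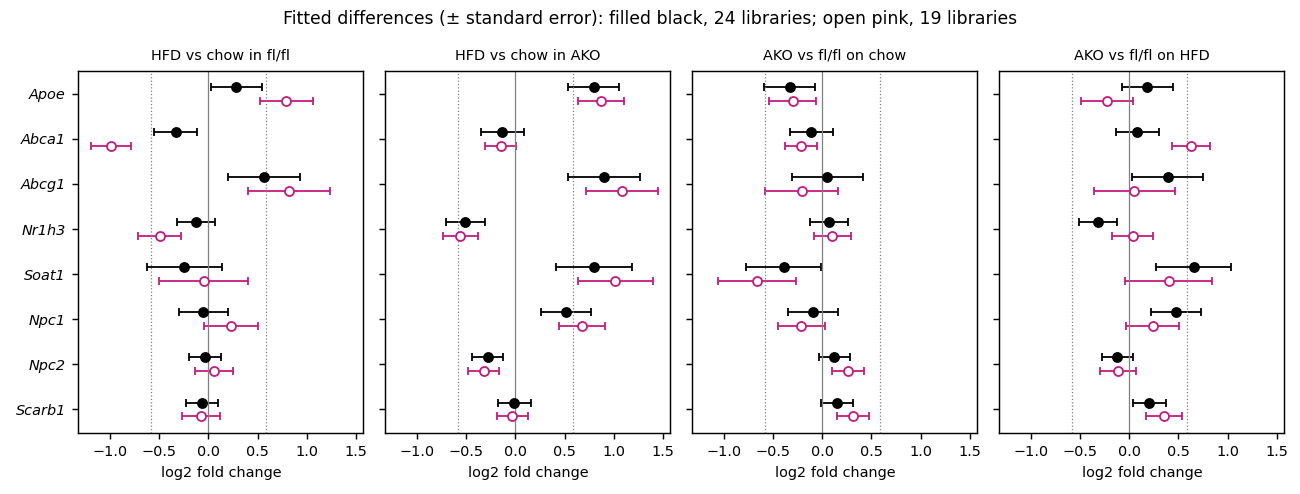
Log2 fold changes (horizontal axis) with standard errors of the 8 genes in 4 comparisons, filled black for 24 libraries and open pink for 19, with dotted lines at a fold change of 1.5. In fl/fl mice *Abca1* moved from -0.33 to -0.99 and *Apoe* from 0.28 to 0.79 with the smaller set, and in AKO mice all 8 estimates kept their sign.

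Counted at an unadjusted p under 0.05, 3 of the 8 genes were higher (*Apoe*, *Abcg1*, *Soat1*) and 1 was lower (*Nr1h3*) on HFD in AKO mice, beside 18.2% of all genes higher and 21.6% lower, 39.8% in all. For the diet averaged over genotypes 2 were higher (*Apoe*, *Abcg1*) and 1 lower (*Nr1h3*), beside 17.1% and 18.4% of all genes, 35.5% in all. For HFD against chow, the median log2 fold change of the 8 was 0.25 in AKO mice, against 0.00 over all genes, and -0.06 in fl/fl mice, against -0.01. Between the genotypes, estimates lay from -0.39 (*Soat1*) to 0.15 (*Scarb1*) on chow and from -0.32 (*Nr1h3*) to 0.66 (*Soat1*) on HFD. With all 24 libraries, no genotype difference of the 8 genes had p under 0.05 on either diet. In the 19, *Abca1* was higher in AKO than in fl/fl mice on HFD by 0.62 ± 0.19 on the log2 scale, with an adjusted p of 0.196. The widest 95% interval on HFD was that of *Soat1*, -0.13 to 1.45, which reaches past a 2-fold difference. The HFD AKO libraries enter the AKO diet effect and the HFD genotype effect alike, and the shared libraries tie these estimates to each other.

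In the 19 libraries HFD against chow called 1 of 8 genes in fl/fl (*Abca1*, lower; 11.8% of all genes called), 0 of 8 in AKO (15.7%) and 1 of 8 averaged over genotypes (*Apoe*, 0.83 on the log2 scale, adjusted p = 0.0008; 21.2%). These counts were near or below the share of all genes. It called 0 of 8 for the chow genotype effect, the HFD genotype effect and the interaction, beside 0.209%, 0.565% and 0.68% of all genes. With an adjusted p of at most 0.05 in these libraries, *Apoe*, *Abcg1*, *Soat1* and *Npc1* passed in AKO mice (27.7% of all genes) and *Apoe* and *Abca1* in fl/fl mice (22.9%). In this set *Apoe* differed by 0.79 ± 0.27 in fl/fl and 0.87 ± 0.23 in AKO mice, and the interaction was 0.08 (adjusted p = 0.953). Leaving out 1 further library left 1 call in fl/fl mice in every fit, but without replicate 2 of HFD fl/fl that call was *Nr1h3* and not *Abca1*.

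Macrophage and adipocyte markers had estimates of opposite sign for the diet in AKO mice, and few met the criteria. Of 10 macrophage markers, 10 had positive estimates (median 0.88, 3 with p under 0.05), as had 8 of 8 lipid-associated macrophage markers (median 1.65, 8 with p under 0.05), beside 18.2% of all genes higher at that p, and 0 of either list met the criteria, beside 4.12% of all genes. All 8 adipocyte markers had negative estimates (median -1.12), and 1, the leptin gene *Lep*, fell by the criteria. Summed macrophage markers ranged from 2582 to 9185 CPM in chow AKO and from 7841 to 13684 CPM in HFD AKO, and summed adipocyte markers from 14606 to 39246 CPM and from 8433 to 23669 CPM. The lowest sums in any library were 1795 CPM for macrophage, 667 CPM for lipid-associated macrophage and 8433 CPM for adipocyte markers. The fl/fl medians were 0.06, 0.01 and -0.10 for the macrophage, lipid-associated macrophage and adipocyte lists. In the 19 libraries they were 0.82, 0.75 and -1.36 in fl/fl mice, with 0, 0 and 1 markers called, and 1.02, 2.16 and -1.25 in AKO mice, with 1, 6 and 4 called. Among the other lists in AKO mice, the medians were -0.73 for endothelial, -1.44 for mesothelial (*Msln* called) and 0.50 for stromal progenitor markers (*Pdgfra* called). T cell, B cell and blood markers had medians of 0.04, 1.09 and -0.27 with 0 calls. The part of these markers in the results for the 8 genes was not tested.

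Within groups, the 8 genes separated by the markers they varied with. Log2 CPM of each gene and the mean over each marker list were centred on the group means, and the 24 libraries were compared over 24 relations, with p from 100000 permutations within groups. *Soat1* varied with the lipid-associated macrophage score at Pearson r = 0.94 (Spearman rho = 0.87, permutation p = 2e-05 and 3e-05, adjusted p = 9.6e-05 and 0.000192) and with the macrophage score at r = 0.91. Without the 2 libraries farthest out on the marker scale, r for the lipid-associated score was 0.892, and in the 19 libraries it was 0.978. Values without the 2 libraries kept the group means of all 24, whereas the 19 were centred anew on their own group means. Of all tested genes, 1.54% had an r as high. *Npc1* followed with r = 0.85 (rho = 0.86, permutation p = 1e-05 for both, the smallest the permutations can give, adjusted p = 9.6e-05 and 0.000192; 0.860 without the 2 libraries), which 5.77% of genes reached.

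*Abcg1* had r = 0.73 with the macrophage score (rho = 0.77, permutation p = 0.00019 and 0.0005, adjusted p = 0.000507 and 0.00133) and 0.725 without the 2 libraries farthest out, and 12.8% of genes had as much. *Nr1h3* went the other way, with r = 0.74 with the adipocyte score (rho = 0.74, permutation p = 0.00092 and 0.00074, adjusted p = 0.00221 and 0.00178; 0.650 without the 2 libraries) and r = -0.63 with the macrophage score. In the 19 libraries these were 0.537 and -0.394. *Apoe* had r = 0.56 with the macrophage score (rho = 0.61, permutation p = 0.0214 and 0.00658, adjusted p = 0.0367 and 0.0121). That relation was 0.707 without the 2 libraries farthest out but 0.198 in the set of 19. It was thus weak once the 5 libraries were left out, and which of them it depended on was not tested. *Abca1* (r = -0.27 with macrophage and 0.45 with adipocyte markers), *Npc2* (-0.02 and 0.15) and *Scarb1* (0.03 and 0.04) had no relation with an adjusted p of at most 0.05. Of all tested genes, 22.6% had an r with the macrophage score as high as that of *Apoe*. For *Nr1h3*, 11.1% had an r as high with the adipocyte score and 15.6% an r as low with the macrophage score. Altogether 14 of 24 relations passed. Those of *Apoe* and *Nr1h3* with the macrophage score were among them, although 22.6% and 15.6% of all genes had an r as far out. The share of all genes that would pass such tests was not computed, so this count does not set these genes apart from other genes. The relations are not independent of each other: the first principal component, centred likewise, had r = 0.93 with the macrophage and -0.96 with the adipocyte score.

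**Figure D3:**
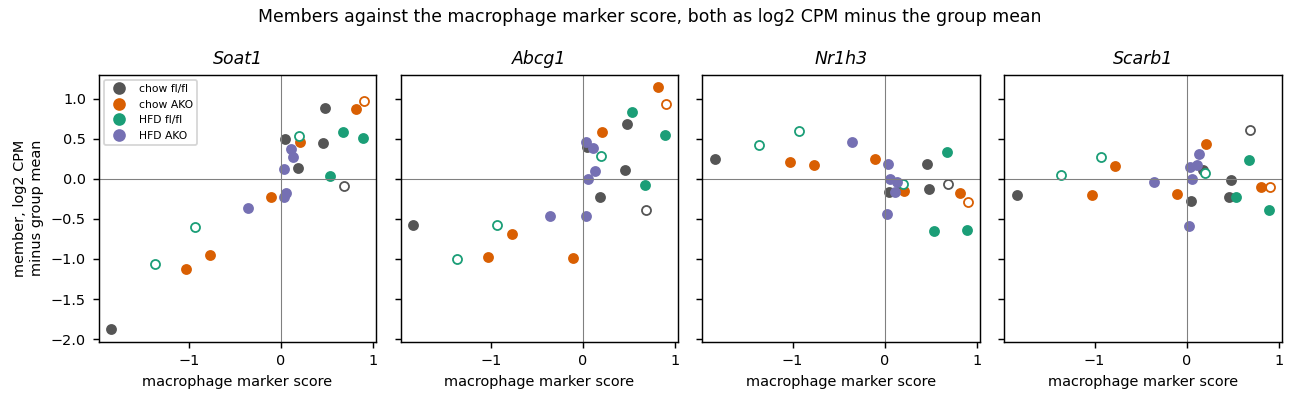
Log2 CPM of 4 genes minus their group mean (vertical axis) against the macrophage marker score, centred likewise (horizontal axis), 1 point per library, coloured by group, with open points for the 5 libraries left out of the set of 19. *Soat1* (r = 0.91) and *Abcg1* (r = 0.73) run upward, *Nr1h3* (r = -0.63) runs downward and *Scarb1* (r = 0.03) stays level.

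Among themselves, *Soat1* and *Npc1* had r = 0.85 over the centred libraries, *Soat1* and *Abcg1* 0.80 and *Npc1* and *Abcg1* 0.71, as a description over 24 libraries. *Nr1h3* ran against *Abcg1*, one of its targets, at r = -0.78, and it had r = 0.22 with *Abca1* and -0.42 with *Apoe*. *Abca1* and *Abcg1*, which load different acceptors, had r = 0.06. *Npc1* and its partner *Npc2* had r = -0.04, and *Npc2* went best with *Scarb1* (0.52).

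**Figure D4:**
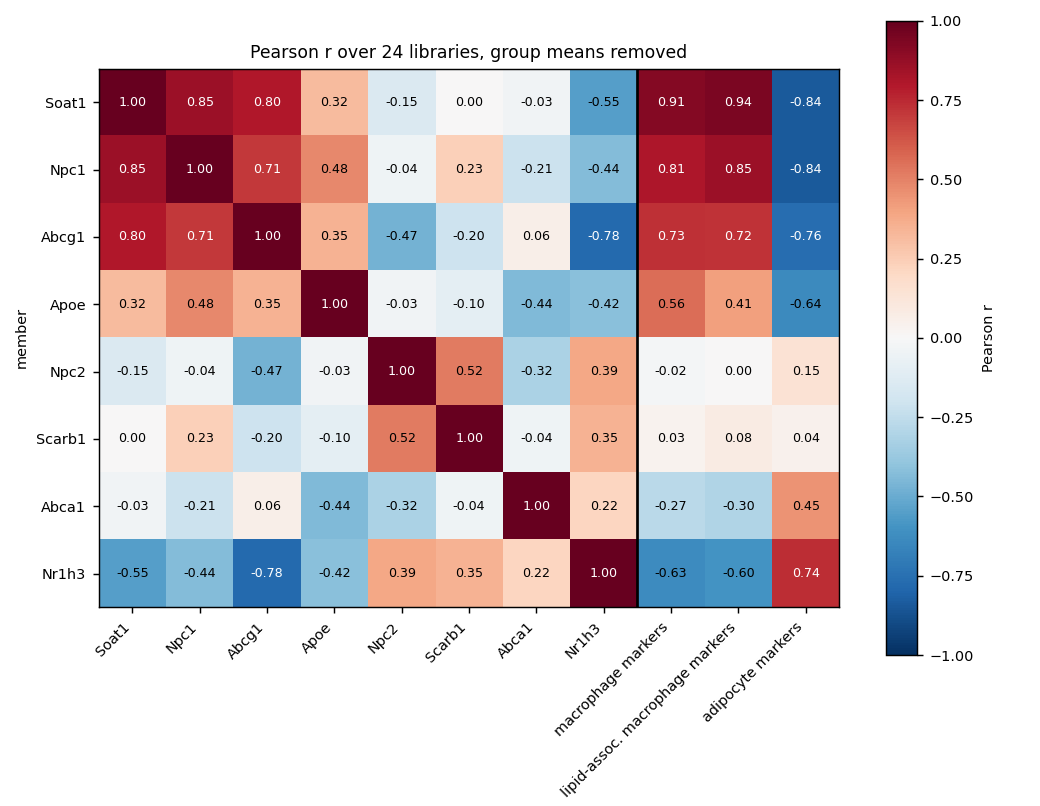
Pearson r between the 8 genes (left block) and between each gene and 3 marker scores (right of the line), over 24 libraries with group means removed, red for positive and blue for negative. *Soat1*, *Npc1* and *Abcg1* form a positive block (0.71 to 0.85) that is blue against *Nr1h3* (-0.78 to -0.44), and *Npc2* and *Scarb1* are pale against all 3 scores.

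The genes most like each member, by r of centred log2 CPM over 24 libraries among 13257 named genes, were given without a test. For *Soat1* these were *Nceh1* (0.98), which encodes a hydrolase of cholesteryl ester, *Basp1* (0.97) and *Shtn1* (0.97). For *Npc1* they were *Slc43a2*, *Mfsd11* and *Tcirg1* (0.95, 0.94 and 0.94), the last a subunit of the proton pump of lysosomes. For *Abcg1* they were *Frmd4a*, *Plekhm3* and *Gna13* (0.95, 0.94 and 0.94), and for *Nr1h3* *Ubac1*, *B230118H07Rik* and *Mdh2*, the mitochondrial malate dehydrogenase (all 0.95). *Apoe* was closest to *Vav2*, *Gapvd1* and *Got2* (0.87, 0.85 and 0.85) and *Abca1* to *Usp8*, *Zfp36l1* and *Creb1* (0.89, 0.87 and 0.86). *Npc2* went with *Anxa2*, *Rexo2* and *Nedd8* (0.83, 0.79 and 0.78) and *Scarb1* with *Ttc27*, *Tgm2* and *Arhgap1* (0.87, 0.85 and 0.84).

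Other sterol genes were read from 6 lists. On HFD in AKO mice, 1 of 12 tested LXR partners and other LXR targets rose, beside 4.12% of all genes called, namely *Smpdl3a*, which encodes a secreted phosphodiesterase. Its levels were 68.1, 83.7 and 114 CPM on chow and 116, 171 and 224 CPM on HFD. The groups did not overlap, as for 6.96% of all genes, and the log2 fold change was 0.93 ± 0.20 (adjusted p = 0.0124), beside -0.13 in fl/fl mice. The median of the list was -0.15, and *Apoc1*, another LXR target, had -0.97 ± 0.33 (adjusted p = 0.0381), which missed the criteria.

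Of 16 genes of intracellular sterol transfer, 1 rose in AKO mice, beside 4.12% of all genes called. This was *Gramd1b* (Aster-B), which carries cholesterol from the plasma membrane to the endoplasmic reticulum. It lay at 23.6, 30.4 and 57.7 CPM on chow and 54.5, 67.6 and 71.3 CPM on HFD, with 1 chow library inside the HFD range (0.84 ± 0.19, adjusted p = 0.0130). The list median was 0.29, and the oxysterol-binding protein relative *Osbpl1a* had -1.07 (adjusted p = 0.0243). None of 8 lipoprotein receptors was called by edgeR. At p under 0.05, 3 were higher and 1 was lower, beside 18.2% and 21.6% of all genes. Among these receptors, *Lrp1*, the large scavenging receptor that binds apolipoprotein E, had 0.89 ± 0.28 (adjusted p = 0.0295) and *Vldlr* had -1.40 ± 0.42 (adjusted p = 0.0270). Of 6 tested genes of cholesteryl ester storage and hydrolysis, 0 were called. At p under 0.05, 2 were higher and 1 was lower, *Lcat* (1.37) and *Lipe* (-1.24) among them, beside the same shares of all genes. *Lipe* also stands in the adipocyte list. Of 3 tested oxysterol genes 0 were called and 0 had p under 0.05, with *Cyp27a1* at 0.03 and *Cyp7b1* at 0.70.

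Estimates for the 14 genes of sterol synthesis were mostly negative in AKO mice. They were negative for 13 of 14 (median -0.50), 6 of 14 were lower at p under 0.05, beside 21.6% of all genes, and 2 fell by the criteria, beside 4.12% of all genes called. Among these was *Insig1*, the sterol-regulated anchor of the SREBP pathway (-1.75 ± 0.42, adjusted p = 0.0166). *Insig1* lay at 46.1, 126 and 215 CPM on chow and 30.0, 34.9 and 53.0 CPM on HFD, with an overlap at 2 chow libraries. *Hmgcs1*, an early enzyme of the pathway, had -1.05 (adjusted p = 0.0345). Of the fl/fl estimates 9 of 14 were positive (median 0.15). In fl/fl mice 0 genes of the 6 lists were called by edgeR, beside 0.173% of all genes. At p under 0.05, 1 gene of the 6 lists was higher and 1 lower there, beside 9.01% of all genes. In the 19 libraries the fl/fl median was -0.02, and 4 genes of the 6 lists were called there, all lower, beside 11.8% of all genes: *Vldlr* (-1.44), *Hmgcs1* (-1.37), *Osbpl1a* (-1.11) and *Osbpl9* (-0.66). Of the 6 lists, 3 genes were called in the interaction, beside 0.386% of all genes, *Smpdl3a* (1.06 on the log2 scale), *Insig1* (-2.50) and *Pmvk* (-1.29), each with adjusted p = 0.220. In the same 19 *Smpdl3a*, *Gramd1b* and *Insig1* were again called in AKO mice (1.02, 1.01 and -1.91), beside 15.7% of all genes. *Apoc1*, *Lrp1*, *Vldlr*, *Lipe*, *Osbpl1a*, *Hmgcs1* and *Pmvk* were among the genes called in addition. Higher and lower calls were 1 and 1 among 12 LXR genes, 2 and 1 among 8 receptors and 0 and 1 among 6 ester genes. They were 1 and 2 among 16 transfer genes, 0 and 0 among 3 oxysterol genes and 0 and 5 among 14 synthesis genes.

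**Figure D5:**
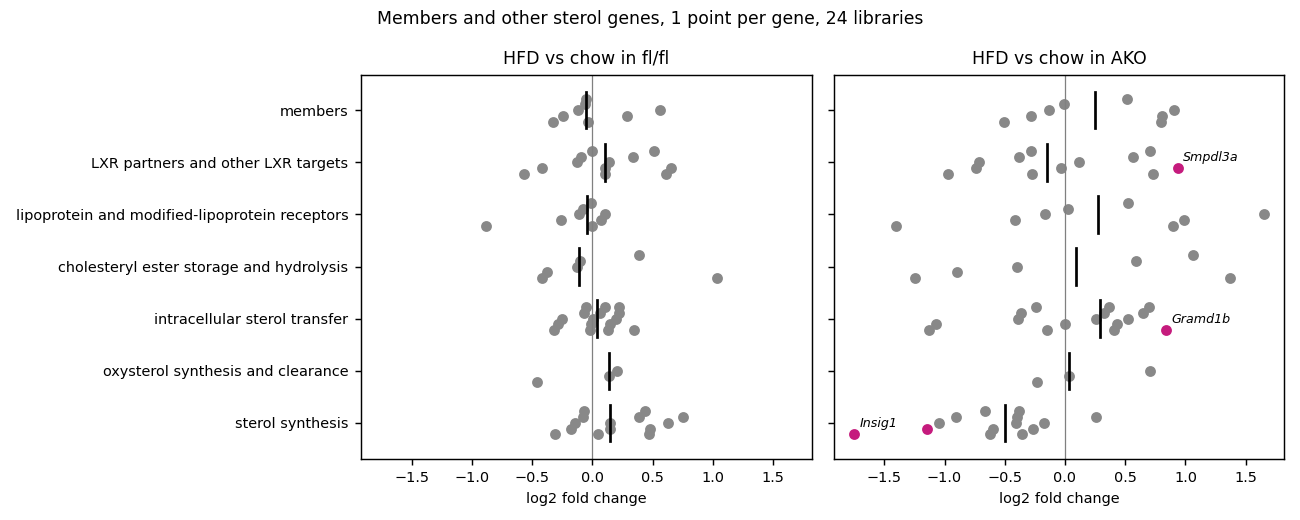
Log2 fold changes of HFD against chow (horizontal axis) in fl/fl and in AKO mice, 1 point per gene, for the 8 genes (labelled members) and 6 lists of other sterol genes, with pink for genes that met the criteria (3 of the 4 are named) and a bar at each list's median. In AKO mice 13 of 14 sterol synthesis genes lie left of 0 and the 8 genes lie from -0.51 to 0.90, while in fl/fl mice no gene is called with these 24 libraries.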

How the data were processed

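The 8 genes and all lists were chosen with earlier results of these data known. The authors aligned and counted QuantSeq reads with the Lexogen pipeline on Bluebee and deposited raw counts per gene. They also deposited these counts divided by 1 size factor per library (0.46 to 1.36), a normalized signal used here for symbols and positions only, and 13948 of 14067 positions are those of GENCODE release 21 (GRCm38). The submitters' processing notes name DESeq2 1.30 and R 4.0.3.

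Counts were fitted here in R 4.3.3 with edgeR 4.0.16 (TMM, a minimum of 1 CPM in 3 libraries, quasi-likelihood test, 1 coefficient per group, all 24 libraries), with p adjusted by Benjamini-Hochberg over 15020 genes. The study used limma-voom after removing libraries. Its thresholds were kept, and limma 3.58.1, DESeq2 1.42.0 and 19 libraries were alternatives. Which libraries were removed was inferred in earlier work, partly by matching plotted values of these data. Levels are CPM with TMM factors. Correlations used log2 CPM with a prior count of 2. The code was tested on simulated data. Named genes were the 8, *Lama4*, genes of the sterol lists called in a comparison or the 2 per list with the lowest p for the averaged diet, and the 3 genes closest to each of the 8. One gene that this rule names is not reported here. Marker genes called with all libraries, and sterol genes called only in the 19, were named after their values were seen. The 60 pairs of libraries within groups differed by at least 5.72 chi-square per degree of freedom, so none held the same library counted again. That check cannot tell whether 2 libraries came from 1 mouse. Each library was treated as 1 mouse.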

Additional observations from a re-analysis of the deposited data

Results flagged for a closer look

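In 32 sets of 6 libraries (8 genes in 4 groups), the lowest or highest library was compared with the rest by Dixon's ratio of gap to range on log2 CPM, for which 0.625 is the critical value and chance gives about 1 set in 20. The ratio was 0.647 for *Soat1* in chow fl/fl, where replicate 1 had 28.4 CPM and the next library 98.7 CPM. It was 0.648 for *Npc1* in the same library, with 46.5 CPM and 69.5 CPM in the next. The summed macrophage and lipid-associated macrophage markers of chow fl/fl also had their lowest values, 1795 and 667 CPM, in replicate 1, and their part in these levels was not tested.

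In the interaction test, 3 genes of the sterol lists met the criteria, beside 0.386% of all genes: *Smpdl3a* (1.06 on the log2 scale, AKO minus fl/fl), *Pmvk*, a kinase of the mevalonate pathway (-1.29), and *Insig1* (-2.50). Each had an adjusted p of 0.220 (edgeR), so the diet effects were not shown to differ once p was adjusted. In the 19 libraries none of the 3 met the criteria, with interactions of 0.76, -1.01 and -1.39 and adjusted p = 0.245, 0.172 and 0.223.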

How the results depend on the processing

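With 24 libraries, 0 of 8 genes were called in all 6 comparisons under limma-voom, DESeq2, RLE size factors and an unfiltered table. The same held with no fold change criterion and with each mouse left out in turn (0 to 0). Fits of only the groups compared also gave 0 of 8, but were not run for the interaction or the averaged diet. Replicate numbers showed no clear pairing of mice across groups. The median r was 0.00181 over 36 same-numbered pairs and -0.00971 over 180 others, with 15 and 58 of them over 0.1. Of 24 libraries, 5 correlated best with their own number. Such correlations cannot exclude a pairing by litter or batch. The replicate block gave 0 of 8 as well. An adjusted p of at most 0.05 gave 1 gene in AKO diet, beside 16.1% of all genes. The 19 libraries gave 1 in fl/fl diet and 1 in the averaged diet, beside 11.8% and 21.2% of all genes. Limma-voom on them, chosen after seeing the data, gave 1, 1 and 2 (fl/fl, AKO, averaged). An adjusted p on them gave 2, 4 and 2, beside 22.9% and 27.7% of all genes in fl/fl and AKO diet. With 1 of the 19 left out, also chosen after seeing the data, counts ran from 1 to 1, 0 to 2 and 1 to 2. The remaining shares of all genes are not given here, so these counts are not read as added signal in the 8 genes.

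Of 1664 alternative values of the 48 gene and comparison pairs, 49 had the opposite sign, and the cause was not tested. These values are not all separate checks. An adjusted p or no fold change criterion on 24 libraries kept the main estimates, whose sign could not change. An adjusted p on the 19 counted the reversals of the 19 again. In fl/fl diet the 19 libraries gave *Npc1* 0.23 and *Npc2* 0.056, limma-voom on them gave *Npc1* 0.19, *Npc2* 0.064 and *Soat1* 0.19, and only the groups compared gave *Npc2* 0.0098. For the chow genotype effect *Abcg1* was -0.21 in the 19 libraries, -0.17 with limma-voom, -0.42 with limma-voom on the 19 and -0.00899 with the replicate block. For the HFD genotype effect the 19 libraries gave *Apoe* -0.22 and *Nr1h3* 0.034, and limma-voom on them -0.17 and 0.074. With 1 of 24 mice left out, ranges that crossed 0 were, for fl/fl diet, *Nr1h3* -0.26 to 0.0064, *Npc1* -0.25 to 0.058, *Npc2* -0.077 to 0.065 and *Scarb1* -0.12 to 0.077. For *Scarb1* they were -0.082 to 0.076 in AKO diet, -0.087 to 0.12 in the interaction and -0.067 to 0.033 averaged. On chow they were -0.21 to 0.21 for *Abcg1* and -0.25 to 0.025 for *Npc1*, and on HFD -0.045 to 0.22 for *Abca1*.

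Correlations of the opposite sign were, in the 19 libraries, *Abca1* 0.28 (macrophage) and 0.094 (lipid-associated), *Npc2* 0.027 (macrophage), *Apoe* -0.027 (lipid-associated) and *Scarb1* -0.13 (adipocyte). Without the 2 libraries farthest out they were *Scarb1* -0.058 (macrophage) and -0.063 (adipocyte) and *Npc2* -0.042 (lipid-associated), and as Spearman rho *Npc2* -0.11 (lipid-associated). Each of the 8 genes had at least 262 counts in each library, so counting error was small beside the spread between mice.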

Other observations

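*Apoc1*, which encodes apolipoprotein C-I, is the neighbour of *Apoe* on chromosome 7 (19689481 to 19692660, 3448 bases away on GRCm38), and the pair was compared after its values had been seen. In AKO mice the log2 ratio of *Apoe* to *Apoc1* within a library was 5.42 ± 1.17 (SD, n = 6) on chow and 7.05 ± 0.38 (SD, n = 6) on HFD. The difference was 1.64, given as a description only, since a p-value for a pair picked on these same values would not be a fair test. The chow ratios ran from 4.26 to 7.31 and the HFD ratios from 6.48 to 7.47, so the groups overlapped. In fl/fl mice the ratio was 5.54 ± 0.35 on chow and 6.16 ± 1.02 on HFD (SD, n = 6 and 6), a difference of 0.62. Whether the diet effects on the ratio differ between genotypes was not tested.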
